A study of Rattus norvegicus with 6 samples.

Results

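Solute carriers are membrane proteins that move ions, amino acids, sugars, metals and metabolites across the cell surface and organelle membranes, mostly along ion or substrate gradients. In the spinal cord they clear glutamate and glycine from the synaptic cleft, set neuronal chloride, pass lactate between cells, and supply cystine for glutathione. Circular RNAs (circRNAs) arise when a downstream splice site is joined to an upstream one, and a read across that back-splice junction counts 1 molecule fragment of the circle. The data here are back-splice reads assigned to solute carrier genes as circRNA hosts. Hosts were taken from the deposited table by symbol (Slc followed by a digit), with antisense circRNAs not counted and Slc8a1, a sodium-calcium exchanger gene, left out. The rule found 67 of 4443 host genes, with 141 circRNAs and 1110 reads over 6 libraries. It also takes Slc4a1ap, which encodes an adaptor protein and no carrier, with 2 reads. All 67 are current rat symbols in RefSeq (assembly GRCr8), on the chromosome that the deposited table gives.

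The libraries came from spinal cords of Wistar rats aged 8 weeks, 3 labelled as spinal cord injury (SCI) and 3 as sham control. The design text describes complete transection for the injured rats and laminectomy, the removal of part of the vertebral arch, alone for the controls. The series title can also be read as incomplete transection, and no source used here gives the time after surgery. Nothing in the labels says that each library is its own rat, so p-values measure only the spread between these libraries. No circRNA sequence is printed, because no source used here gives the build of the coordinates, and no genome was used.

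The libraries held 19603 to 21255 back-splice reads in SCI and 9805 to 12722 in sham. A count of 0 therefore allows a share of up to 0.0141% to 0.0306% of a library (3 reads), covering counting error only. Sham replicate 3 stood furthest from the others by 1 measure. In pairwise comparisons over circRNAs with 5 or more reads in the pair, its chi-square per degree of freedom was 4.19 to 5.64, against 2.22 to 4.16 among the other 5 libraries. Sham replicate 1 came next, at 3.98 to 4.16 with the SCI libraries. By correlation over the hosts tested below, sham replicates 1 and 3 were alike, each 0.33 to 0.40 with the SCI libraries. Sham replicate 3 held the most reads of the sham libraries and the fewest circRNAs, 2131 against 2556 and 2775. Marker hosts of cord cell types were counted as summed reads. All 10 neuronal markers had reads, at 0.673% to 0.837% of SCI and 0.479% to 0.865% of sham libraries, as did 7 of 8 oligodendrocyte markers, at 0.474% to 0.579% and 0.353% to 0.424%. The 6 microglia and macrophage markers were at 0 throughout. Of 6 skeletal muscle markers 1 had reads (7 in SCI, 0 in sham). Astrocyte markers, a list that shares Slc1a2, Slc4a4 and Slc7a11 with the solute carriers, had 24, 16 and 24 reads in the SCI libraries. In the sham libraries they had 15, 15 and 0, with Aldh1l1 and Slc1a3 at 0 throughout. Most of these reads were of the 3 shared hosts. Of 64 SCI and 30 sham reads, Slc7a11 had 30 and 14, Slc4a4 22 and 4, and Slc1a2 10 and 2. The remaining markers held few reads, fewer in SCI than in sham. The zero in sham replicate 3 thus includes the zeros of these 3 hosts themselves. It is no separate reading of astrocytes for them, and its cause was not tested.

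Solute carrier hosts took about the same share of back-splice reads in both groups. The share was 1.23%, 1.12% and 1.16% in the SCI libraries and 1.38%, 1.27% and 0.810% in sham. The means were 1.17% ± 0.0558 and 1.16% ± 0.305 (SD, n = 3 each), a difference of 0.0116 percentage points that is smaller than either SD. The sham spread came from replicate 3, whose Wilson 95% interval of 0.668% to 0.981% lies below those of the other sham libraries (1.19% to 1.61% and 1.07% to 1.52%). Without it the sham mean was 1.33%, above each SCI library. Of all solute carrier reads, 65.0% were in SCI libraries, against 64.4% for reads of the other hosts. In bulk tissue, fewer cells of a type and less RNA per cell cannot be told apart.

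More solute carrier hosts were seen per SCI library, with 35, 33 and 38 of the 67 having a read, against 27, 26 and 14 in sham. Larger libraries detect more hosts, so each was thinned to 9805 reads, the smallest total. The expected numbers were then 30.02, 27.8 and 32.1 in SCI and 26.7, 26.0 and 13.7 in sham, still without overlap between groups. The SCI mean was 1.36 times the sham mean, and 1.14 times without sham replicate 3. The same ratio over all 4443 hosts was 1.30, and 1.23 without that library, so a gap of this kind was seen over all hosts. Every circRNA in the table reached 2 reads in at least 1 library, a floor that deeper libraries meet more easily, also after thinning.

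**Figure D1:**
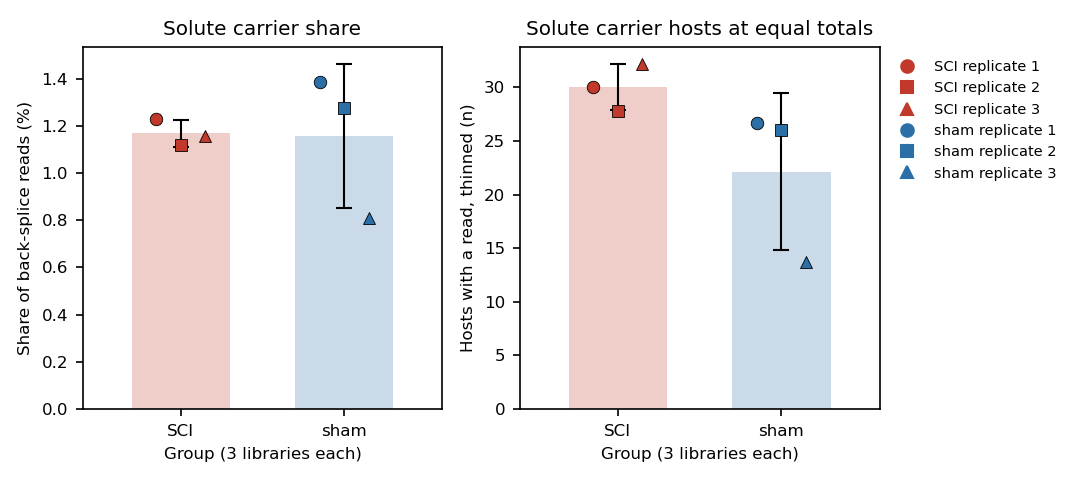
Left, share of back-splice reads from solute carrier hosts in each library (%); right, expected number of solute carrier hosts with a read after thinning to 9805 reads. Bars are group means, error bars 1 SD (n = 3) and symbols single libraries; sham replicate 3 is lowest in both panels, at 0.810% and 13.7 hosts.

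Most carriers were seen in few reads. The median host had 6 reads over all 6 libraries, as did the median of the other hosts, and 32 of 67 had 5 or fewer. The 5 most-read hosts, Slc38a1, Slc41a2, Slc38a9, Slc26a11 and Slc44a1, held 49.4% of the reads, and the 15 most-read held 74.0%. Reads in all 6 libraries were found for 5 hosts (7.46%, against 11.9% of the other hosts): Slc38a1, Slc41a2, Slc26a11, Slc44a1 and Slc8a3. A single library held every read of 26 hosts (38.8%, against 37.2%). SCI libraries alone held 21 hosts with 87 reads, and sham libraries alone held 12 hosts with 48 reads. Among the other hosts, 34.8% were in SCI libraries alone and 15.3% in sham alone, close to the 31.3% and 17.9% of the carriers.

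The 141 circRNAs resembled those of other hosts in class and structure. Of them, 98 were classed as exonic (69.5%, against 67.6%), 38 as sense overlapping and 5 as intronic. A host had 2.10 circRNAs on average, against 2.32. A circBase identifier, which marks a circle listed in that public catalogue, was given for 48 circRNAs (34.0%, against 41.8%), and these held 62.7% of the reads (against 64.5%). Exonic circles spanned a median of 9962 bases of the genome (11722 for the others) with a median predicted length of 478 bases (650 for the others). These are descriptions of the 2 sets, without a test.

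Circles from a shared splice site were common. Of the 31 carrier hosts with 2 or more circRNAs, 17 (54.8%) had circles that began at the same upstream site and 12 (38.7%) had circles that ended at the same downstream site. In the other hosts with 2 or more, these shares were 48.4% and 39.4%. The 4 circles of Slc41a2 that begin at its most-read upstream site held 94.1% of that host's reads, and the 4 of Slc44a1 held 88.2%. In Slc38a1, 3 circles shared the upstream site and 98.2% of reads. The circles of Slc4a4 and Slc9a7 did not follow this pattern: their most-read upstream sites held 19.2% and 28.6% of the reads.

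**Figure D2:**
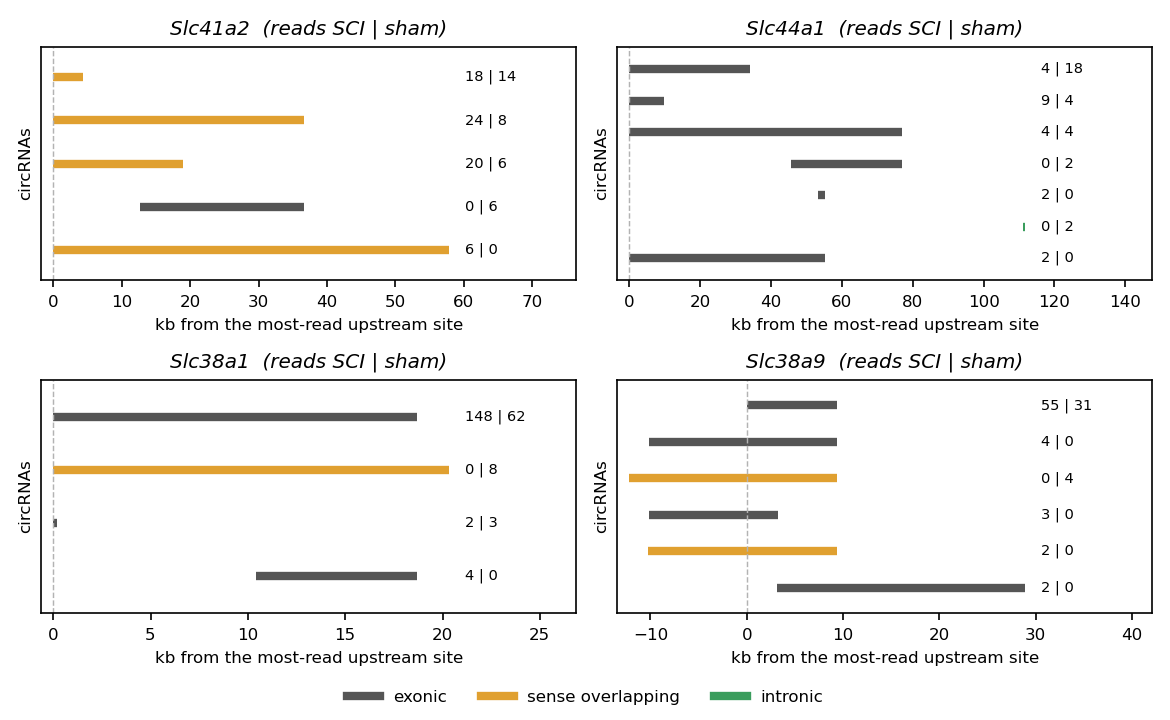
Spans of the circRNAs of 4 hosts, in kb downstream of the most-read upstream site (dashed line), coloured by the table's class. Numbers at the right are reads in the 3 SCI and the 3 sham libraries; in Slc44a1 the most-read circle had 4 and 18 reads, and in Slc41a2 4 of 5 circles begin at the dashed line.

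Only 8 of the 67 hosts had enough reads for the test, edgeR's quasi-likelihood test on counts summed by host, and no carrier host passed it at an adjusted p under 0.05. Over all 647 hosts tested 2 passed (0.309%), so the count of 0 carriers does not set them apart. At an unadjusted p under 0.05 there were 0 carriers as well (42 hosts, 6.49%, over all). DESeq2 and limma-voom each called 0 carriers, with 1 each at an unadjusted p under 0.05. By edgeR, 1 carrier was under it with relative log expression factors, 1 with no TMM and 3 of 67 with no filter. With a replicate left out there were 0 to 2. No share over all hosts was taken for these runs, so these counts have no background. Of circRNAs taken singly, 6 of the carriers' 141 were tested and 0 passed, against 1 of 484 (0.207%, lower in SCI) over all. None of the 6 had an unadjusted p under 0.05 (6.20% over all). By CPM, 0 of the 6 lay above sham in every SCI library (9.71% over all) and 1, that of Slc26a11, lay below (5.17%). Of the 8, 5 had a positive log2 fold change (59.4% of all tested hosts did), and their median was 0.12, beside 0.14 over all tested hosts. Without sham replicate 3, 3 of these 8 were positive and their median was -0.32, beside 0.18 over those of the 647 hosts that were tested again. CPM below are counts scaled to a common library size with TMM factors, and fold changes are SCI over sham with 95% intervals.

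Amino acid carriers held the most reads, 422 from 10 hosts (38.0% of carrier reads). Slc38a1, a sodium-coupled glutamine transporter of neurons, was the most-read carrier, with 73, 44 and 37 reads in the SCI libraries and 20, 24 and 29 in the sham libraries. It stood at 4060 ± 1353 CPM in the injured and 3462 ± 623 in the sham cords (SD, n = 3 each), ranking 53 among the 647 tested hosts. The groups overlapped, with SCI replicate 1 the highest library. Its log2 fold change was 0.24 (interval -0.47 to 0.94, adjusted p = 0.986 by edgeR), and it was -0.05 without SCI replicate 1. An exonic circle (chromosome 7, 137630261 to 137648924, minus strand, predicted length 408 bases) held 92.5% of the host's reads. That circle had 72, 40 and 36 reads in the SCI libraries and 20, 21 and 21 in the sham libraries. Its log2 fold change was 0.33 (SE 0.36, adjusted p = 0.970 by edgeR). A longer circle that begins at the same upstream site (137628578 to 137648924) had 8 reads in sham replicate 3 and 0 in the other 5 libraries.

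Slc38a9, the lysosomal carrier known as an arginine sensor for the growth kinase complex mTORC1, had 19, 30 and 17 reads in the SCI libraries and 25, 10 and 0 in the sham libraries. Sham held both its highest and its lowest library. The log2 fold change of 0.05 (interval -1.56 to 1.67, adjusted p = 0.991 by edgeR) became -0.51 without sham replicate 3. Its main circle (chromosome 2, 63596397 to 63605767, plus strand, exonic, predicted length 531 bases) held 85.1% of the reads, and 4 of its 6 circles end at the same downstream site.

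Slc7a11, the cystine-glutamate exchanger that feeds glutathione synthesis, had 12, 9 and 9 reads in the SCI libraries and 5, 9 and 0 in the sham libraries. The SCI libraries were close together, at 796 ± 114 CPM, while sham was at 725 ± 743 (SD, n = 3 each). Its log2 fold change was 0.18 (interval -1.84 to 2.21, adjusted p = 0.986 by edgeR), and -0.37 without sham replicate 3. The main circle (chromosome 2, 158979073 to 158996899, minus strand, exonic) had 37 of the 44 reads. Slc1a2, the glial glutamate transporter, was too low to test, with 5, 1 and 4 reads in the SCI libraries and 0, 2 and 0 in the sham libraries over 4 circles. The neuronal glycine transporter gene Slc6a5, named here for its role in the cord after its values were seen, had 4 reads, all in sham replicate 1.

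Carriers of bicarbonate and chloride gave 146 reads from 11 hosts, counting Slc4a1ap, which encodes no carrier (2 reads). Slc26a11, a sulphate and chloride transporter gene, had a single circle (chromosome 10, 108092866 to 108101421, plus strand, sense overlapping). It had 14, 13 and 11 reads in the SCI libraries and 10, 7 and 12 in the sham libraries, at 1008 ± 71.8 and 1351 ± 183 CPM (SD, n = 3 each). Every SCI library was below every sham library, the direction that 5.10% of tested hosts showed, but the log2 fold change of -0.42 (interval -1.57 to 0.72) did not pass (adjusted p = 0.986 by edgeR). It lay between -0.56 and -0.07 over the alternatives.

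Slc4a4, the sodium-bicarbonate cotransporter of astrocytes, had the largest positive estimate of the 8. It had 7, 6 and 9 reads in the SCI libraries and 4, 0 and 0 in the sham libraries, so the groups overlapped in sham replicate 1. The log2 fold change was 1.59 (interval -1.10 to 4.27, adjusted p = 0.938 by edgeR), 1.03 without sham replicate 3 and 5.66 without sham replicate 1, the only sham library with reads. Its 26 reads were spread over 10 circles, more than any other carrier, and no circle had over 4 reads. A pair of cation-chloride cotransporters that set neuronal chloride, also named after their values were seen, were near the limit of detection. Slc12a5, the neuronal chloride exporter, had 2 reads in SCI replicate 3 and 5 in sham replicate 1. Slc12a2, the chloride importer, had 2 in SCI replicate 1 and 4 in sham replicate 3. Whether Slc12a5 and Slc12a2 differ between groups was not detectable at this depth.

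Sodium-calcium and sodium-proton exchangers gave 100 reads from 7 hosts. Slc8a3, which exports calcium across the plasma membrane of neurons and muscle, had 14, 8 and 9 reads in the SCI libraries and 7, 9 and 1 in the sham libraries. The log2 fold change was -0.03 (interval -1.79 to 1.73, adjusted p = 0.996 by edgeR) and changed sign in 7 of 13 alternatives. The exonic circle from 113225568 to 113227412 on chromosome 6 has a predicted length of 1845 bases, equal to its span, so no intron was predicted within it, and it had 9 reads. A longer circle with the same downstream site (113225568 to 113227971) had 22 reads. A near copy whose downstream site lies 2 bases away (113225570 to 113227971) had 8, so reads of these circles may be split between near-identical junctions. Slc8a1 itself, fitted in the same test, stood at 3324 ± 1054 CPM in the injured and 3031 ± 1354 in the sham cords (SD, n = 3 each; log2 fold change 0.15, SE 0.40, adjusted p = 0.986 by edgeR). Slc9a7, a sodium-proton exchanger of the trans-Golgi network, had 7, 6 and 2 reads in the SCI libraries and 2, 0 and 4 in the sham libraries over 5 circles. Slc8b1, the mitochondrial sodium-calcium exchanger gene, had 6 reads in sham replicate 1 and 0 elsewhere. A value that rests on 1 library says nothing about the group.

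Metal ion carriers gave 132 reads from 10 hosts, 77.3% of them from Slc41a2, a magnesium transporter gene. It had 17, 27 and 24 reads in the SCI libraries and 12, 9 and 13 in the sham libraries, and was the second most-read carrier. The groups overlapped, at 1816 ± 442 and 1595 ± 96.0 CPM (SD, n = 3 each), with a log2 fold change of 0.18 (interval -0.76 to 1.12, adjusted p = 0.986 by edgeR). Slc41a2 was made of several circles of like abundance, not a dominant one. A sense overlapping circle that spans 4289 bases of the genome (chromosome 7, 26651683 to 26655971, plus strand) had 5, 6 and 7 reads in the SCI libraries. It had 7, 6 and 1 in the sham libraries, and its estimate was -0.57 (SE 0.91, adjusted p = 0.971 by edgeR). The circle from the same upstream site to 26688349 had 8, 9 and 7 reads in the SCI libraries and 2, 0 and 6 in the sham libraries (0.72, SE 1.02, adjusted p = 0.971 by edgeR). An exonic circle from 26664401 to 26688349 had 6 reads, all in sham replicate 3. Of the zinc carriers, Slc39a11 had 4, 1 and 1 reads in the SCI libraries and 0 in the sham libraries.

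Among carriers of organic ions, vitamins and lipids (159 reads, 9 hosts), the choline transporter gene Slc44a1 had the lowest p of the carrier hosts. It had 6, 9 and 6 reads in the SCI libraries and 13, 10 and 7 in the sham libraries, at 557 ± 127 and 1443 ± 489 CPM (SD, n = 3 each). Every SCI library was below every sham library after scaling. Of the 8 tested carrier hosts, 2 lay below in this way (5.10% of all tested hosts) and 0 above (9.89%). The log2 fold change of Slc44a1, -1.34 (interval -2.72 to 0.03), did not pass (unadjusted p = 0.0553, adjusted p = 0.764 by edgeR). The estimate stayed negative in the 13 alternatives in which this host was tested, from -1.55 to -1.02. Its most-read circle (chromosome 5, 74451438 to 74485400, plus strand, exonic, predicted length 370 bases, no circBase identifier) had 2, 2 and 0 reads in the SCI libraries and 9, 2 and 7 in the sham libraries. It made up 19.0% of the host's reads in SCI and 60.0% in sham. The other 6 circles together held 17 SCI reads and 12 sham reads. The circle had too few reads for the test, and its change in share was noticed after the values were seen.

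The other hosts of this family did not pass the filter on low counts. Slc22a23, an organic ion carrier gene of unknown substrate, had 6, 12 and 6 reads in the SCI libraries and 0, 2 and 3 in the sham libraries. Slc33a1, which brings acetyl-CoA into the endoplasmic reticulum, had 6, 8 and 3 against 0, 1 and 0, a ratio to library totals of 9.41 (exact 95% interval 1.47 to 393). Slc19a1, the reduced folate carrier gene, had 2, 8 and 6 against 2, 2 and 0. Slc10a7, a bile acid carrier relative, had 7, 2 and 6 reads against 0, and the exact 95% lower limit of its ratio to library totals was 1.99. Slc20a2, a phosphate transporter gene, had 5, 4 and 3 against 0, with a lower limit of 1.54. These limits cover counting error only, not the spread between libraries, and are not adjusted for the number of hosts. Both genes meet the naming rule of 6 or more reads in 1 group and 0 in the other. A limit above 1 partly restates that rule. In the other direction, Slc2a12 and Slc8b1 had upper limits of 0.221 and 0.470, each with reads in a single sham library. Neither Slc10a7 nor Slc20a2 had a dominant circle: the 15 reads of Slc10a7 came from 4 circles and the 12 of Slc20a2 from 3.

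As shares of library reads, 5 of the 67 carrier hosts had each SCI library above all 3 sham libraries: Slc22a23, Slc33a1, Slc10a7, Slc20a2 and Slc39a11. That is 7.46%, where 5.92% of all 4443 hosts did so. Slc26a11 and Slc44a1 were lower in this way (2.99% of carriers, 1.53% of all hosts). The first share is near the background, the second rests on 2 hosts, and neither was tested.

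Sugar and monocarboxylate carriers gave 71 reads from 6 hosts. Slc16a1, the lactate and pyruvate transporter, had 3, 1 and 16 reads in the SCI libraries and 1, 7 and 0 in the sham libraries, with most in 1 library of each group. Slc16a10, an aromatic amino acid transporter, had 6, 2 and 6 against 3, 0 and 4, from a single exonic circle. Slc2a12, a glucose transporter gene, had 11 reads from 1 exonic circle in sham replicate 3 and 0 in the other 5 libraries.

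Mitochondrial carriers (56 reads, 7 hosts) had 0 reads in sham replicate 3 and took 0.1204% and 0.112% of the other sham libraries. In SCI they took 0.0423%, 0.0528% and 0.0561%, so the SCI libraries lay between the sham extremes. Slc25a40, a mitochondrial glutathione carrier gene, had 2, 2 and 8 reads in the SCI libraries and 4, 2 and 0 in the sham libraries. Nucleotide-sugar carriers gave 24 reads from 7 hosts, with Slc35a3, the Golgi UDP-N-acetylglucosamine transporter gene, at 2, 0 and 4 reads against 0. None of these 3 families had a host with enough reads for the test, and the groups overlapped in all 8 families.

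**Figure D3:**
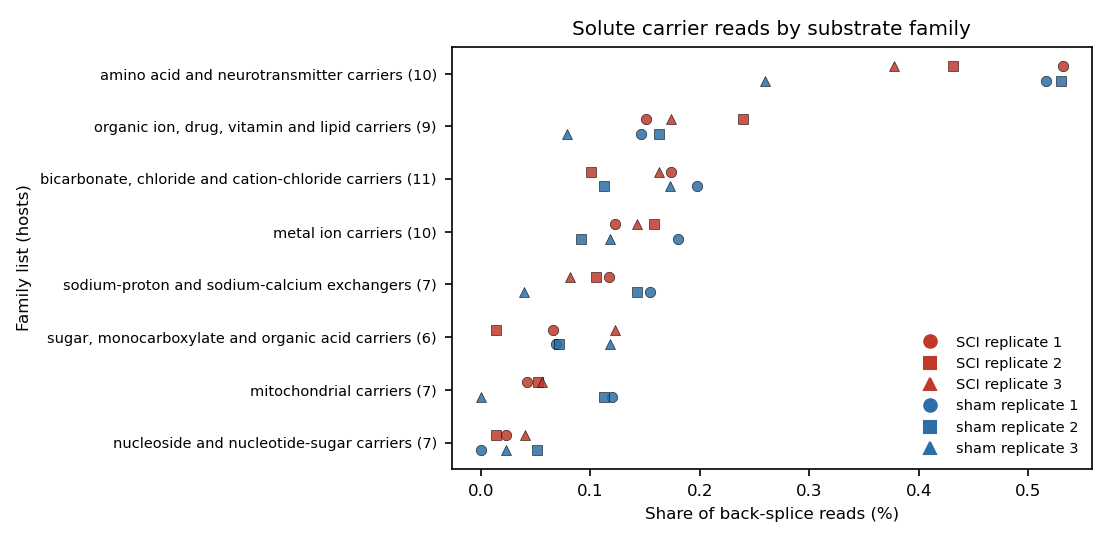
Share of back-splice reads (%) of each substrate family in each library, with the number of hosts in parentheses; symbols are single libraries. Amino acid carriers lie highest, between 0.259% and 0.532%, and the SCI and sham symbols overlap in every family.

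**Figure D4:**
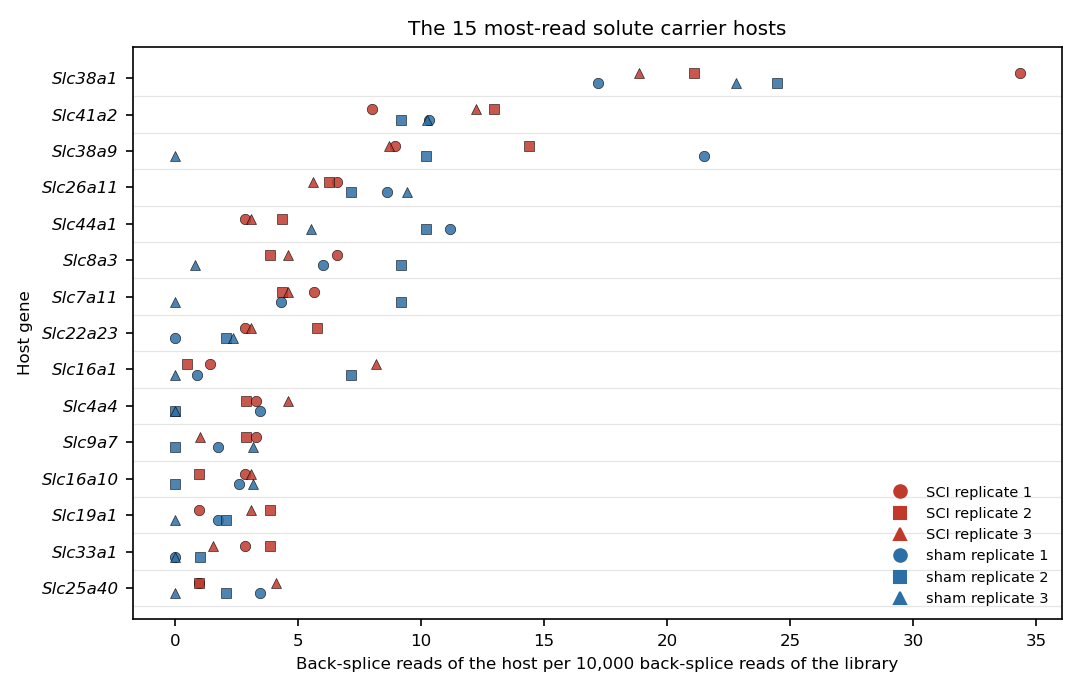
Back-splice reads per 10000 of the library's total for the 15 most-read hosts, with symbols for single libraries. Slc38a1 spans 17.2 to 34.3, and 7 of the 15 hosts are at 0 in sham replicate 3, against 0 of 15 in each SCI library. The hosts were chosen by total reads and the SCI libraries are larger, so the lack of zeros in SCI is partly built in.

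**Figure D5:**
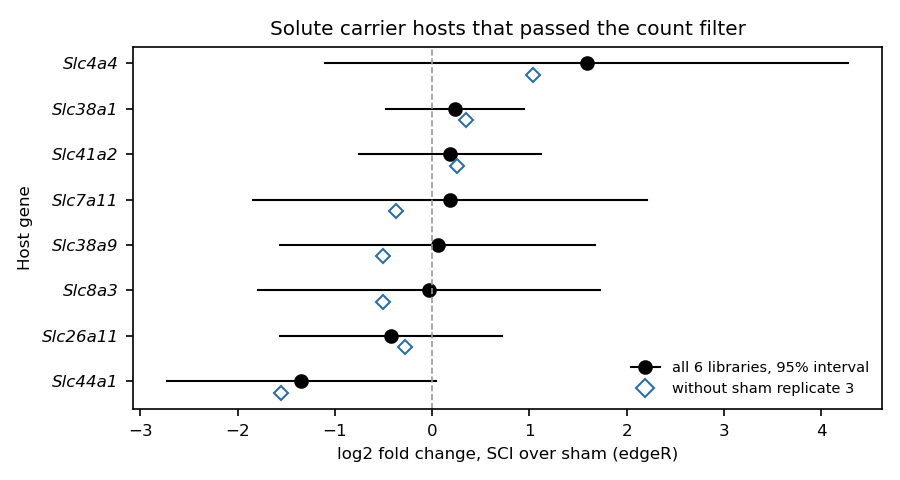
Log2 fold change (SCI over sham) of the 8 tested hosts by edgeR, with 95% intervals (lines) and the estimate without sham replicate 3 (diamonds). All 8 intervals include 0; Slc44a1 lies lowest at -1.34 and Slc4a4 highest at 1.59.

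Among the 15 most-read hosts, zeros fell most often in sham replicate 3, the largest sham library. All 15 had reads in every SCI library, 2 were at 0 in sham replicate 1, 3 in sham replicate 2 and 7 in sham replicate 3. These hosts were chosen by total reads and the SCI libraries are larger, so the lack of zeros in SCI is partly built in. The 7 hosts at 0 in sham replicate 3 were Slc38a9, Slc7a11, Slc16a1, Slc4a4, Slc19a1, Slc33a1 and Slc25a40. Of them Slc38a9, Slc7a11 and Slc4a4 were tested. Without that library the log2 fold changes of Slc38a9 and Slc7a11 became negative, while those of Slc38a1, Slc41a2 and Slc4a4 remained positive.

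Pumps, transporters of other families, regulators of the carriers and the left-out carrier Slc8a1 were set beside them as a list of 48 hosts. The list took 1.39% ± 0.152 of reads in SCI libraries and 1.43% ± 0.161 in sham ones (SD, n = 3 each). Slc8a1 gave 188 of its 1343 reads. Of the 48 hosts, 9 were tested, Slc8a1 among them, and 0 passed by edgeR, with 1 at an unadjusted p under 0.05. Their median log2 fold change was 0.23. The one was Stk39, the kinase that phosphorylates and controls the cation-chloride cotransporters, and it had more reads than any carrier host. It had 123, 115 and 105 reads in the SCI libraries and 47, 34 and 49 in the sham libraries, at 9109 ± 303 and 6097 ± 450 CPM (SD, n = 3 each). Every SCI library was above every sham library, as for 9.89% of tested hosts. The estimate, a log2 fold change of 0.58 with SE 0.22, did not pass (unadjusted p = 0.0211, adjusted p = 0.649 by edgeR) and lay between 0.44 and 0.93 over 14 alternatives. Atp9b, a P-type flippase gene, had 22, 21 and 15 reads in the SCI libraries and 26, 6 and 18 in the sham libraries, and its estimate was -0.58 (SE 0.48, adjusted p = 0.938 by edgeR).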

How the data were processed

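The authors deposited whole-number counts of back-splice junction reads for 11061 circRNAs in 6 libraries, per the file headers, without normalisation. They also deposited log2 CPM made with edgeR, per the file headers, which was not used. Bowtie 0.12.2 and mm8, a mouse build, appear in the submitters' processing notes. No source used here names the circRNA caller or the rat build; printed positions follow the table, counted from 1. Total RNA went into an Illumina TruSeq RNA kit, per the labels' protocols; that kit commonly selects polyadenylated RNA, which circRNAs are not, and whether it did so here is not stated.

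Counts were summed by host, without the 112 antisense circRNAs, none of them on a solute carrier. All hosts were tested with edgeR 4.0.16 (R 4.3.3): quasi-likelihood F test, TMM, filterByExpr (minimum count 5, minimum total 15), group as the only term, Benjamini-Hochberg adjustment over all hosts (647) or circRNAs (484) tested. Standard errors are the log2 fold change over the root of F, and 95% intervals use the test's degrees of freedom. Alternatives used DESeq2 1.42.0 and limma-voom 3.58.1. Intervals of ratios are exact binomial (SciPy 1.17.1). Back-splice reads mark junctions, so host reads were not divided by length. Scripts were checked on simulated counts. No molecular identifiers are mentioned and reads may be PCR copies, so intervals and floors take in counting error alone. No 2 libraries agreed within sampling noise.

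Hosts named are those tested, the 15 most read, those with 6 or more reads in 1 group and 0 in the other, those with 4 or more circRNAs, and the 3 most-read other transporters; further names were picked with their values known, and some hosts are not reported here. The members, lists and rules were chosen with earlier results of these data known.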

Additional observations from a re-analysis of the deposited data

How the results depend on the processing

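No solute carrier host or circRNA passed at an adjusted p under 0.05 in any alternative run (14 for hosts, 13 for circRNAs), where the lowest adjusted p of a carrier host was 0.343, without sham replicate 2. Over all hosts, 2 calls became 1 with relative log expression factors, 7 with no filter, 4 with DESeq2, 1 with the replicate block, 1 with antisense circRNAs added, and 0 to 8 with a replicate left out. Over all circRNAs, 1 call became 2 with no TMM, with a minimum count of 10, with DESeq2, with limma-voom and with the replicate block, 0 with no filter, and 0 to 3 with a replicate left out. Same-numbered libraries showed no sign of deviating together (correlations 0.01, 0.06 and 0.02, beside -0.10 to 0.07 for differently numbered ones). With low counts and 3 libraries per group, this cannot exclude pairing. The median of all hosts moved by 0.34 with no filter, 0.14 with limma-voom and -0.11 with a minimum count of 10, and with sham replicate 1 or 2 left out by 0.11 and 0.15.

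Some estimates changed sign, most of them near 0 but not that of the Slc26a11 circRNA, and the cause was not tested. With a replicate left out, Slc38a1 (0.24) ranged from -0.0461 to 0.502, negative only without SCI replicate 1. Slc38a9 (0.05) was -0.0437 with relative log expression factors, -0.0287 with no TMM, -0.0789 with a minimum count of 10 and -0.0597 with DESeq2. It was positive and larger with limma-voom (1.62) and with the replicate block (0.50). With a replicate left out it ranged from -0.508 (sham replicate 3) to 1.26 (sham replicate 1), and was -0.18 without SCI replicate 2. Slc8a3 (-0.03) was 0.28 with no filter, 0.52 with limma-voom, 0.22 with the replicate block, 0.17 and 0.04 without SCI replicates 2 and 3, and 0.18 and 0.74 without sham replicates 1 and 2. Slc7a11 (0.18) ranged from -0.367 (without sham replicate 3) to 1.35 (without sham replicate 2). Slc8a1 (0.15) ranged from -0.123 (without sham replicate 3) to 0.580 (without sham replicate 2), and was -0.11 without SCI replicate 1. Among circRNAs, that of Slc26a11 (-0.50) was 0.10 with no filter and that of Slc7a11 (0.07) ranged from -0.406 (without sham replicate 3) to 1.68 (without sham replicate 2). That of Slc38a9 (-0.12) was 0.46 with no filter, 1.30 with limma-voom, 0.51 with the replicate block, 0.01 and 0.17 without SCI replicates 1 and 3, and ranged from -0.594 (without sham replicate 3) to 1.74 (without sham replicate 1). Slc41a2, Slc26a11, Slc44a1 and Slc4a4 kept their sign as hosts in every alternative in which they were tested. For Slc4a4 these were 10, as it was not tested with a minimum count of 10 or with any SCI replicate left out. Its sign was therefore not checked against leaving out an SCI library.

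The difference in the carrier share (0.0116 percentage points) was 0.0264 with Slc8a1 added, -0.0212 without Slc38a1, 0.0810 in exonic circRNAs alone and 0.00823 without Slc4a1ap, the last chosen after seeing the data. It was -0.162 (without sham replicate 3) to 0.126 with a replicate left out. The excess of 7.87 thinned hosts in SCI was 13 unthinned and 3.65 to 10.2 with a replicate left out. Depth limits the carriers: 59 of 67 hosts had too few reads for the test, so their differences between groups were not tested against the spread between libraries.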
